A study of Mus musculus with 16 samples.

Results

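Imprinted genes were examined through every probe set of the array whose annotation names one of 10 genes, and no other gene: H19, Igf2, Igf2r, Meg3, Rian, Mest, Peg3, Peg10, Cdkn1c and Snrpn. A probe set is a group of short oligonucleotides on the array that together report 1 transcript. This gave 28 of the 45101 probe sets on the array, for 9 of the 10 genes and of 18194 genes with such a probe set in all. H19 has none, because its 1 probe set is annotated to Mir675 as well, and 6 of the 7 probe sets that name Snrpn also name Snurf. One further probe set names both Igf2r and its antisense transcript Airn, and these 8 shared probe sets were left out.

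Both groups used one batch of total RNA, from cultured mouse embryonic stem (ES) cells of line E14tg2a, with no treatment in either group. Amplified arrays (n = 8) were made from cDNA amplified by PCR with the V1V3 method, in separate reactions. That cDNA came from RNA diluted to 10 pg, about what a single cell holds. Nonamplified arrays (n = 8) were made from 5 µg of undiluted RNA, without that PCR. The replicates are technical, and every p-value measures the spread between such arrays and not between cultures. The comparison asks how faithfully amplification from a single-cell amount keeps the measured level of a transcript.

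Imprinted genes are expressed from only 1 parental allele, which is set by DNA methylation laid down in the egg or sperm and kept through early development. Many lie in clusters that share a control region and hold coding genes beside long noncoding RNAs, and several act on fetal and placental growth. In mouse ES cells imprinted expression is known to drift with culture, so their RNA is often measured as a check of the state of a line. In the mouse, Igf2r, Meg3, Rian and Cdkn1c are expressed mainly from the maternal allele, and Igf2, Mest, Peg3, Peg10 and Snrpn from the paternal allele. The arrays give the total of both alleles and cannot tell them apart.

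Values are the deposited intensities, on a linear scale whose lowest listed value is 1. Median intensity lay between 33.9 and 36.7 on amplified arrays and between 49.7 and 53.8 on nonamplified arrays, and the value 1 was listed for 6.77% to 8.36% and 2.08% to 3.22% of probe sets. All 10 ES cell markers examined were above the nonamplified median, with means of 573 to 8422. The 8 fibroblast markers had means of at most 82.0, and 4 of them lay below that median on every nonamplified array. Their summed intensity was 229 to 368 on amplified and 279 to 353 on nonamplified arrays. Among the 8 trophoblast and endoderm markers and the 7 neural and mesoderm markers with a probe set, 4 and 3 lay below that median on every nonamplified array, and their highest means were 570 (Tfap2c) and 247 (Pax6). Their summed intensities were 469 to 1655 and 509 to 2308 on amplified arrays, and 720 to 904 and 627 to 704 on nonamplified arrays. The part of other cells in the values below was not tested.

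Of the 28 probe sets, 23 passed the filter on low values, and 15 of these differed between groups at a limma adjusted p under 0.05, against a background of 57.5% of all 27022 tested probe sets. In the 23, 5 were higher and 10 lower in the amplified group, where 24.7% and 32.8% of all tested probe sets were. Among the 10, Igf2r 1424112_at, Meg3 1436713_s_at, Rian 1427580_a_at, 1440001_at and 1452899_at, and Peg3 1417356_at passed the filter only through their nonamplified values. Their amplified means were 8.82 to 25.8, below the filter at an intensity of about 33.7. Passing in this way fixed their direction as lower, so their calls, differences and p-values here and below are descriptions. The background was filtered in the same way. Differences are given as log2(intensity + 16) of amplified minus nonamplified, a scale that understates the change of dim probe sets. Their median was −0.34 for the imprinted genes and −0.17 for all tested probe sets. At least 2-fold calls numbered 11, 3 higher and 8 lower, with a background of 34.6%. The groups did not overlap for 10 of the 23, with a background of 33.6%. The 4 maternally expressed genes held 4 higher and 7 lower of 17 tested probe sets, and the paternally expressed genes 1 higher and 3 lower of 6. Of the 17, Meg3 held 10 and Rian 4, with all of the higher calls, so these count probe sets and do not compare parental classes.

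How the arrays are scaled moves small differences across 0. The median log2 difference over all tested probe sets was 0.24 after centring arrays on their medians, 0.045 when scaled on the brighter 50% of probe sets, −0.026 under quantile normalization and −0.59 when scaled on hybridization controls. In the imprinted genes the split was 6 higher and 9 lower with the median, 5 and 9 with the brighter 50%, 5 and 9 under quantile normalization, and 3 and 12 on the hybridization controls. Weighting the groups or using a robust intensity trend also left 3 higher. Of all calls, 63.2%, 54.1%, 50.9% and 22.5% were higher in the same order, and 43% as deposited. None of the 23 was called in opposite directions under these scalings. The size of some called differences moved by over 1.5 times: Meg3 1439380_x_at to 1.30 under quantile normalization, Peg3 1417355_at to −0.52 after median centring, and, with a pseudocount of 64, Igf2r 1424111_at to −1.44, Igf2r 1424112_at to −1.66, Peg3 1417356_at to −1.35 and Rian 1440001_at to −0.65.

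**Figure D1:**
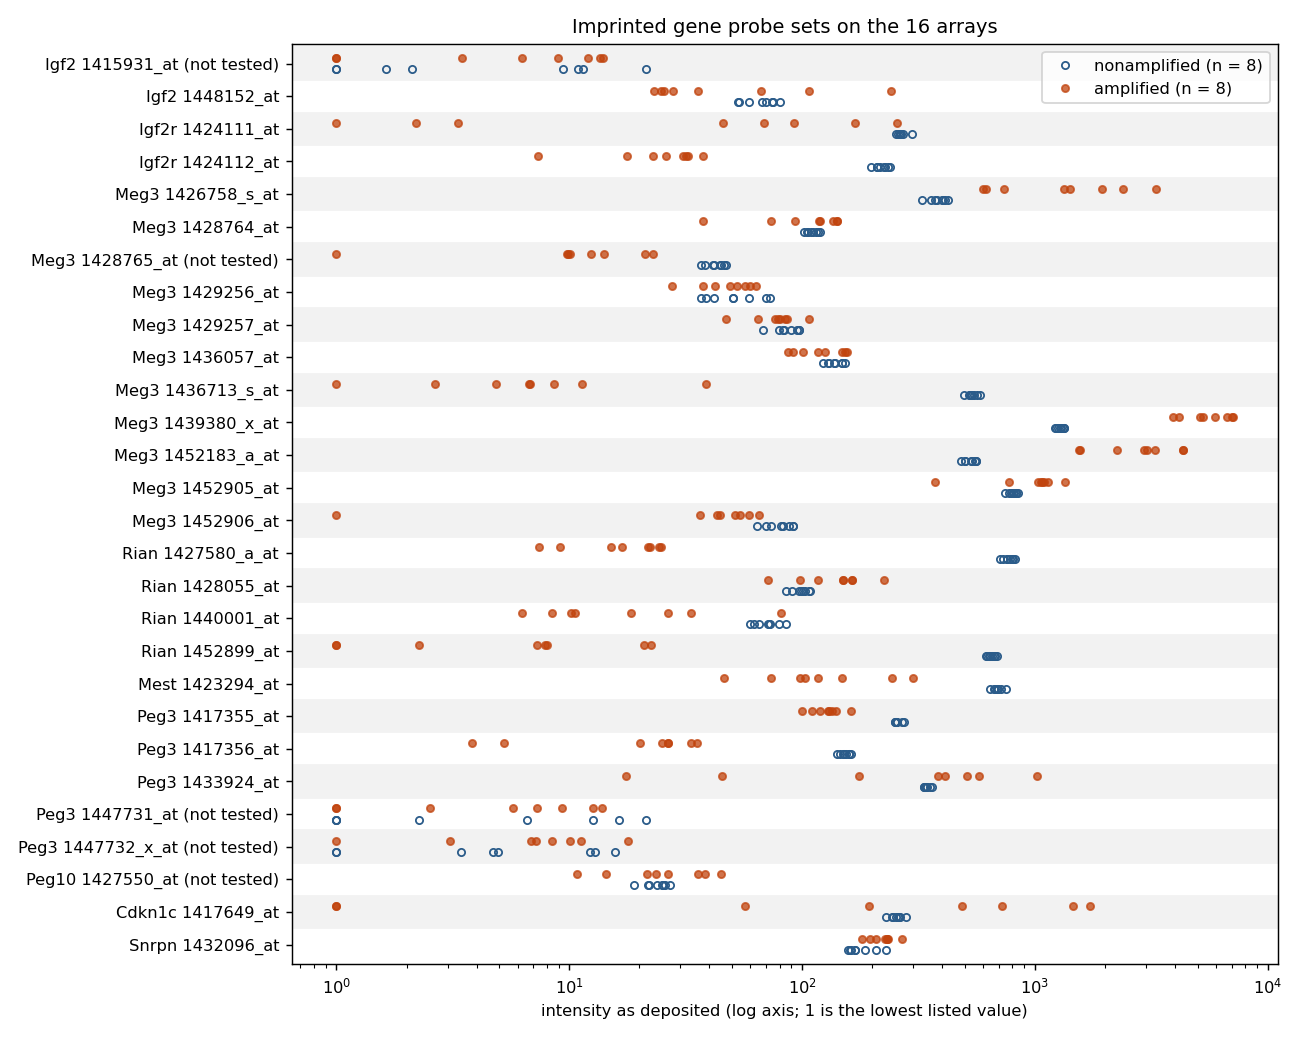
Deposited intensity (log axis) of each of the 28 probe sets, named by gene and probe set, on the 8 amplified arrays (filled) and the 8 nonamplified arrays (open), each point 1 array. The amplified points spread more widely for most probe sets, and for Meg3 they lie wholly above the nonamplified points at 3 tested probe sets and wholly below them at 1 tested probe set.

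Igf2 encodes a growth factor that drives fetal growth, and Igf2r the receptor that binds it and carries it to the lysosome. One Igf2 probe set (1415931_at) was at the bottom of the scale in both groups, from 1 to 13.9 on amplified and from 1 to 21.3 on nonamplified arrays, and was not tested. The other (1448152_at) had a lowest, median and highest intensity of 53.2, 68.4 and 80.1 on nonamplified arrays and of 23.2, 31.8 and 240 on amplified arrays. Of the amplified arrays, 5 lay below every nonamplified array and 2 above. The difference of −0.30 (SE 0.34, limma adjusted p = 0.472) did not pass as deposited. It turned to 0.11 after median centring and to 0.069 under quantile normalization. Without amplified replicate 2, the array at 240, it was −0.58 and passed (limma adjusted p = 0.0392).

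Igf2r was lower after amplification at both of its probe sets. The first (1424111_at) measured 253, 264 and 298 (lowest, median, highest) without amplification and 1, 57.3 and 257 with it, and 7 of 8 amplified arrays lay below every nonamplified array. The exception was replicate 2, at 257, within the nonamplified range. This gave a difference of −2.23 (SE 0.53, limma adjusted p = 0.00163). The second (1424112_at) measured 198, 220 and 239 without amplification and 7.38, 28.4 and 37.7 with it, so that the groups were apart on all arrays. Its difference was −2.53 (SE 0.14, limma adjusted p = 1.52e-10). The differences of the 2 probe sets were not shown to differ (0.30, exact permutation p = 0.653). The replicate at 257 on the first was at 17.6 on the second.

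Meg3 and Rian are long noncoding RNAs of 1 imprinted cluster, transcribed from the maternal chromosome beside the growth regulator Dlk1, and Rian hosts many small nucleolar RNAs and microRNAs. Meg3 is known to be silenced in some stem cell lines. On nonamplified arrays its tested probe sets had means from 52.4 (1429256_at) to 1284 (1439380_x_at), which differ in their oligonucleotides and so are not levels to be ranked. Of 10 tested Meg3 probe sets, 3 were higher, 2 lower and 5 did not pass.

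All 3 higher Meg3 probe sets were above every nonamplified array on all 8 amplified arrays. Intensity at 1439380_x_at went from 1221, 1287 and 1337 (lowest, median, highest) without amplification to 3909, 5600 and 7083 with it, a difference of 2.09 (SE 0.12, limma adjusted p = 3.02e-10). At 1452183_a_at it went from 483, 532 and 560 to 1551, 2985 and 4313, a difference of 2.33 (SE 0.20, limma adjusted p = 3.46e-08). At 1426758_s_at it went from 329, 390 and 422 to 601, 1374 and 3318, a difference of 1.72 (SE 0.31, limma adjusted p = 0.000163). The annotation derives the last 2 from the same source sequence. The suffixes _x_at and _s_at mark probe sets that may bind other transcripts too, so these rows may hold more than Meg3.

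One Meg3 probe set fell close to the bottom of the scale after amplification. The intensity of 1436713_s_at was 498, 536 and 582 (lowest, median, highest) without amplification and 1, 6.77 and 38.6 with it, with no overlap and a difference of −4.50 (SE 0.18, limma adjusted p = 2.25e-12). Its difference minus that of 1452183_a_at was −6.84 and minus that of 1439380_x_at was −6.59, and that of 1426758_s_at exceeded it by 6.22. Each had an exact permutation p = 0.000155, the smallest that 12870 regroupings of 16 arrays can give. That p was fixed once the groups were apart in opposite directions at both probe sets, so it adds nothing to the lack of overlap. Both signs are found in probe sets annotated to a single gene on the same arrays. As an _s_at probe set, 1436713_s_at may also bind other transcripts, so this row too may hold more than Meg3.

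The other Meg3 probe sets had differences under 1 on the log2 scale. Intensity at 1452906_at went from 64.3, 82.3 and 91.8 (lowest, median, highest) to 1, 48.1 and 65.3, a called difference of −0.79 (SE 0.25, limma adjusted p = 0.0135). It kept its sign but lost the call after median centring (−0.38), under quantile normalization (−0.41), on the brighter 50% (−0.57) and with a pseudocount of 1 (limma adjusted p = 0.0698). The 5 that did not pass had differences of −0.18 to 0.21 on the log2 scale, and each changed sign under at least 1 scaling. On the hybridization controls, 1429257_at (−0.56, limma adjusted p = 0.00693) and 1436057_at (−0.60, limma adjusted p = 0.00524) were called lower. Of the 5, 1452905_at measured 743, 809 and 843 without amplification and 373, 1066 and 1341 with it. Here 6 of 8 amplified arrays were above every nonamplified array and 1, replicate 1 at 373, was below. It was called higher without that replicate (0.40, limma adjusted p = 0.00274) and after median centring (0.62), and had a negative sign under quantile normalization (−0.39) and on the hybridization controls (−0.21). The probe set that was not tested (1428765_at) had 36.8 to 47.0 without amplification and 1 to 23 with it, with no overlap.

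**Figure D2:**
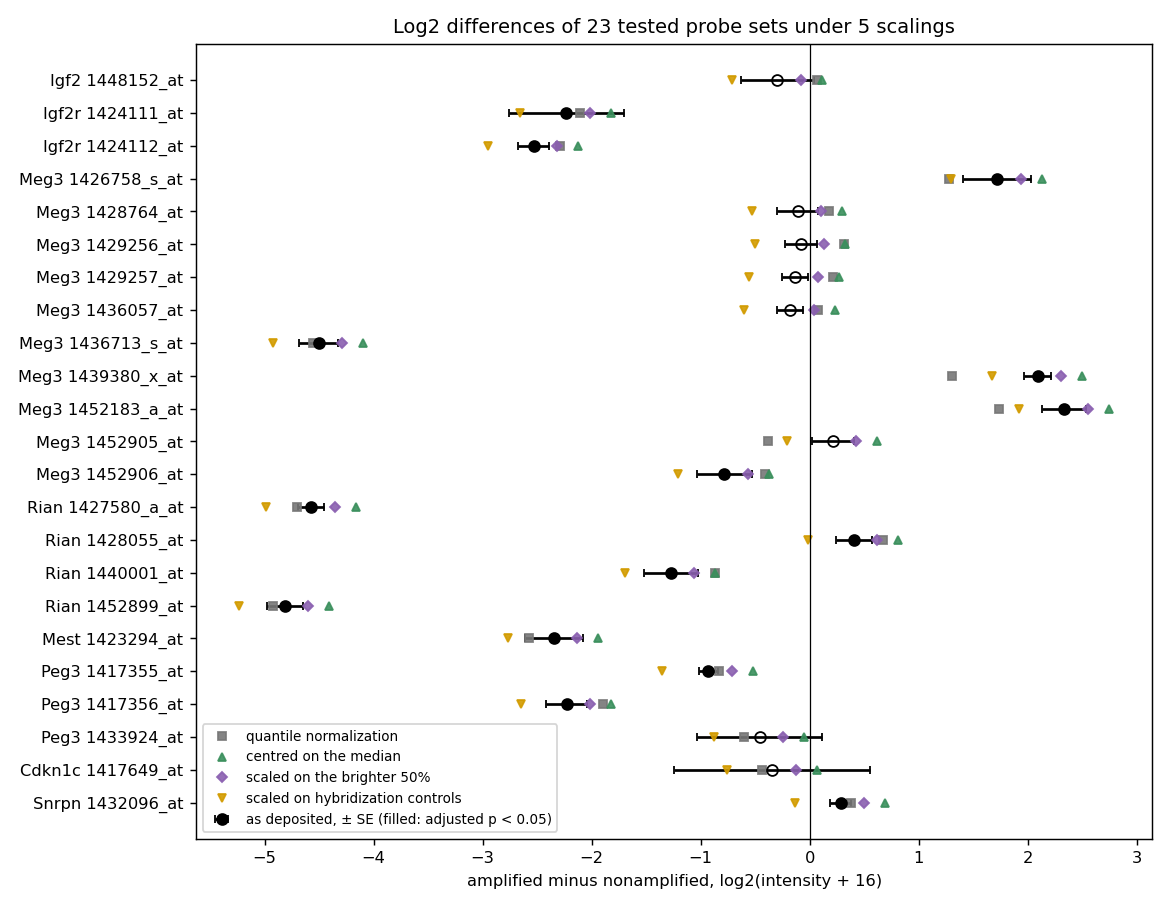
Amplified minus nonamplified difference in log2(intensity + 16) of the 23 tested probe sets, as deposited (circle with SE, filled where the adjusted p is under 0.05) and under 4 other scalings. Meg3 spans −4.50 to 2.33 and Rian −4.81 to 0.40 (−0.015 on the hybridization controls), and scaling moves small differences across 0 but not the large ones.

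Rian showed the largest difference of any tested probe set of the imprinted genes. At 1452899_at the nonamplified arrays measured 614, 649 and 688 (lowest, median, highest) and the amplified arrays 1, 7.55 and 22.3, with 2 of them at the lowest listed value. The difference was −4.81 (SE 0.16, limma adjusted p = 2.83e-13). A second probe set (1427580_a_at) measured 711, 772 and 821 without amplification and 7.40, 19.3 and 24.8 with it, a difference of −4.57 (SE 0.12, limma adjusted p = 1.09e-14). The 2 differences were not shown to differ from each other (0.24, exact permutation p = 0.319), and on both the groups were apart on all 16 arrays.

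The other Rian probe sets had smaller differences. At 1440001_at the nonamplified arrays measured 59.5, 71.5 and 85.6 and the amplified arrays 6.27, 14.5 and 81.5, a difference of −1.28 (SE 0.25, limma adjusted p = 0.000302). All amplified arrays but replicate 5, at 81.5, lay below every nonamplified array. At 1428055_at the nonamplified arrays measured 85.6, 99.9 and 109 and the amplified arrays 71.3, 150 and 224, with 6 of 8 above every nonamplified array. This difference of 0.40 (SE 0.16, limma adjusted p = 0.0459) lost its call without any 1 of the 8 nonamplified arrays or of amplified replicates 1, 2, 3, 6 and 8, and was −0.015 on the hybridization controls. It departed from those of 1452899_at and 1427580_a_at by 5.22 and 4.98 (exact permutation p = 0.000155 each). The ranges of the 3 probe sets again fixed that p as the smallest possible. It therefore adds nothing to the lack of overlap at 1452899_at and 1427580_a_at. The probe sets of other genes most like 1452899_at over the 16 arrays belonged to Pbrm1, Dnajb6 and Rif1, with root mean square differences of 0.36, 0.40 and 0.41 on the log2 scale. Their nonamplified means were 555, 629 and 721 and their amplified means 3.97, 16.3 and 7.69. The measure picks probe sets of like level in both groups and does not show a shared regulation.

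Mest, which encodes a member of the alpha/beta hydrolase fold family, was lower after amplification. Its 1 probe set (1423294_at) measured 643, 687 and 748 (lowest, median, highest) without amplification and 46.1, 110 and 299 with it. All amplified arrays were below all nonamplified arrays, and the difference was −2.35 (SE 0.26, limma adjusted p = 8.32e-07).

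Peg3, a zinc finger protein that affects growth and maternal behaviour, was lower at 2 of 3 tested probe sets. Intensity at 1417355_at went from 250.4, 253 and 273 to 99.8, 130.3 and 163, a difference of −0.93 (SE 0.086, limma adjusted p = 8.13e-08), and at 1417356_at from 142, 153 and 163 to 3.83, 25.7 and 35.2, a difference of −2.23 (SE 0.19, limma adjusted p = 2.09e-08). Neither overlapped between groups. Although the annotation gives both the same source sequence, their differences were apart by 1.30 (exact permutation p = 0.000155).

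The third Peg3 probe set (1433924_at) behaved differently from array to array. Nonamplified arrays lay close together, at 333, 339 and 360 (lowest, median, highest), while amplified arrays measured 17.6, 396 and 1017. No amplified array lay within the nonamplified range: 5 were above it and 3, replicates 1, 2 and 8, below it. The difference of the mean log2 values, −0.46 (SE 0.57, limma adjusted p = 0.520), did not pass. Mean intensity went the other way, at 392 amplified and 343 nonamplified. Probe sets 1447731_at and 1447732_x_at had no value above 21.3 in either group and were not tested.

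Peg10, a retrotransposon-derived gene needed for placenta formation, was near the bottom of the scale and was not tested. Its probe set (1427550_at) measured 19, 24.5 and 27.1 (lowest, median, highest) without amplification and 10.8, 25.2 and 44.9 with it. Of the probe sets left out it was the closest to the filter, with a mean log2 value of 5.34 against the filter at 5.64 and 5.80 for the nearest tested one (Rian 1440001_at).

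Cdkn1c, an inhibitor of cyclin-dependent kinases that restrains growth, had the most scattered values of the imprinted genes. The 8 nonamplified arrays measured 230 to 279, with a median of 255. Amplified replicates 1 and 7 were at the lowest listed value of 1, replicates 2 and 4 at 56.6 and 194, and replicates 5, 6, 3 and 8 at 487, 719, 1458 and 1717. Thus 4 amplified arrays lay below the whole nonamplified range, 4 above it and 0 within it. The difference of the mean log2 values, −0.34 (SE 0.90, limma adjusted p = 0.770), did not pass. It was 0.064 after median centring, 0.070 with a pseudocount of 64 and 0.18 without amplified replicate 1 or without replicate 7. Mean intensity went the other way, at 579 amplified and 254 nonamplified.

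Snrpn encodes a protein of the spliceosomal core particles that is abundant in brain. Its 1 probe set of its own (1432096_at) measured 158, 168 and 228 (lowest, median, highest) without amplification and 181, 230 and 267 with it, and 4 amplified arrays lay above every nonamplified array. The difference of 0.28 (SE 0.098, limma adjusted p = 0.0213) was called as deposited, but not when groups were weighted (limma adjusted p = 0.275) or with a robust intensity trend (0.0634), and was −0.14 on the hybridization controls.

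**Figure D3:**
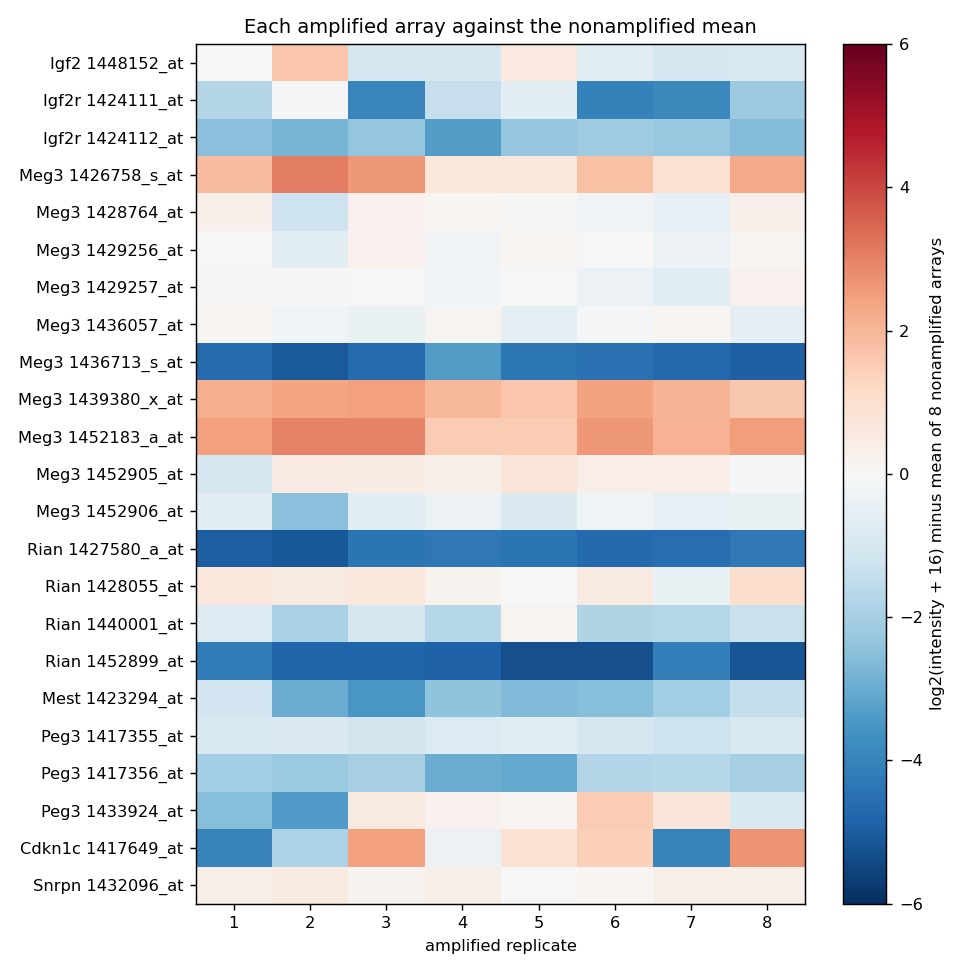
Each of the 8 amplified arrays (columns) minus the mean of the 8 nonamplified arrays, in log2(intensity + 16), for the 23 tested probe sets (rows), red for higher and blue for lower. Meg3 1436713_s_at, Rian 1427580_a_at and Rian 1452899_at are blue on all 8 arrays, while Cdkn1c and Peg3 1433924_at change colour from array to array.

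Arrays of repeat amplifications scattered more than nonamplified arrays of the same RNA for most probe sets. Over the 8 arrays of a group, the median SD of the tested imprinted gene probe sets was 0.53 amplified and 0.078 nonamplified on the log2 scale, where all tested probe sets had medians of 0.51 and 0.13. The spread was taken as the mean absolute distance from the median of the own group and compared by exact permutation over all tested probe sets with Benjamini-Hochberg adjustment. It was larger on amplified arrays for 14 of 23 probe sets, with a background of 48.2%. The count was 9 without nonamplified replicate 8 and 9 with a pseudocount of 64. The background under these settings is not given here, so 48.2% cannot be set beside those counts. Cdkn1c had a spread of 2.21 against 0.058 (adjusted exact permutation p = 0.000813), Igf2r 1424111_at 1.28 against 0.038 (0.000813), and Peg3 1433924_at 1.22 against 0.026 (0.00552). At the other end, Snrpn had 0.11 against 0.13 (adjusted exact permutation p = 0.898) and Meg3 1429256_at 0.22 in both groups (0.993).

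Spread on amplified arrays also depends on the level of a probe set, so each was set beside probe sets of like nonamplified mean, in bins of 10% of those tested. Cdkn1c had a larger SD than 98.3% of its bin. Peg3 1433924_at and Igf2r 1424111_at exceeded 76.3% and 71.5%, whereas Peg3 1417355_at and Snrpn exceeded 2.37% and 1.96%. The 10 Meg3 probe sets lay between 19.9% and 67.6%.

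**Figure D4:**
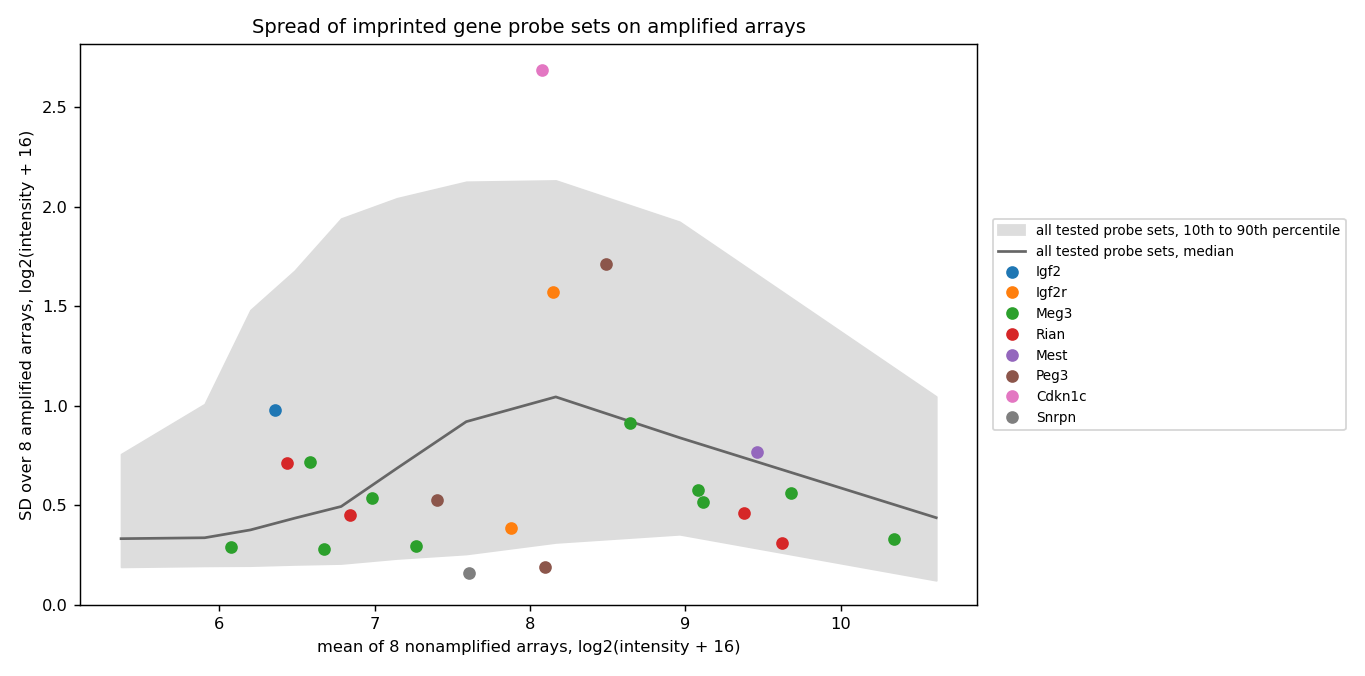
SD over the 8 amplified arrays against the mean of the 8 nonamplified arrays, both in log2(intensity + 16), for the 23 tested probe sets (points, coloured by gene), with the median (line) and 10th to 90th percentiles (grey) of all tested probe sets in 10 bins of the mean. Cdkn1c, with an SD of 2.69, lies above the grey band, and Snrpn and Peg3 1417355_at lie below it.

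A probe set can also read near the bottom of the scale on some or most amplified arrays. A dropout is a value under the 25th percentile of its array at a probe set whose nonamplified mean is in the upper 50%. That percentile was an intensity of 13.1 to 14.4 on amplified arrays. The 23 probe sets in that upper part were those tested. For a nonamplified array the mean was taken over the others, which left 181 values. Dropouts made up 28 of 184 values on amplified arrays (15.2%). The 0 of 181 on nonamplified arrays was largely set by choosing probe sets with a high nonamplified mean, so the groups are not compared. Over all probe sets an amplified array had 13.2% to 15.6%. They occurred at 9 probe sets: on 7 of 8 arrays for Meg3 1436713_s_at, 6 for Rian 1452899_at, 4 for Rian 1440001_at and 3 for Igf2r 1424111_at. Cdkn1c, Rian 1427580_a_at and Peg3 1417356_at dropped out on 2 arrays each. A dropout here is that of a probe set and does not show that the transcript was missing. On all 8 amplified arrays Meg3 1439380_x_at measured at least 3909 and Rian 1428055_at at least 71.3. No amplified array stood apart, with 2 to 5 dropouts each.

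Whether probe sets of 1 gene are high or low on the same amplified arrays was examined in 55 pairs. The differences between groups were apart in 40 of the 55 (72.7%; exact permutation, Benjamini-Hochberg adjusted over all 14813 such pairs of the series), against a background of 57.4%. Meg3 alone gave 45 of the 55 pairs and 33 of the 40, with 5 from Rian, 2 from Peg3 and 0 from Igf2r. The share thus describes mainly 1 gene, whose probe sets each enter many pairs. In 9 pairs (16.4%, background 13%) one probe set was called higher and the other lower. Of these, 3 rest on Rian 1428055_at and 3 on Meg3 1452906_at, whose calls were lost under 19 of 28 and 4 of 27 alternatives, and the other 3 join Meg3 1436713_s_at with the 3 higher Meg3 probe sets. Across the 8 amplified arrays, 1 pair passed after adjustment, Meg3 1426758_s_at with 1452183_a_at (Pearson r = 0.95, exact permutation p = 0.000546, adjusted 0.0300; Spearman rho = 0.92, exact permutation p = 0.00268, adjusted 0.0737). Without the 2 arrays farthest from the median r was 0.93, and on nonamplified arrays it was 0.88. The call was lost without any single amplified replicate but the sixth. By rho 0 pairs passed, and 5 had an unadjusted exact permutation p under 0.05 by r. The median r of the 55 pairs was −0.14 on amplified and 0.065 on nonamplified arrays, and over the 14797 such pairs of the series with a defined r it was 0.16 on amplified arrays. These pairs share arrays and probe sets, so the shares and medians are descriptions.

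Other genes known as imprinted in mouse, some of them only in placenta, were described with 1 probe set each, that of the highest nonamplified mean. For this list and the next, intensities are arithmetic means. The log2 difference is that of mean log2(intensity + 16), so its size need not match the ratio of those means. Of 48 listed genes 42 had a probe set and 29 were tested: 7 were higher and 12 lower, against 23.1% higher and 30.3% lower of 13438 genes (53.4% called), with medians of −0.62 for the list and −0.17 for all genes. Phlda2, which restrains placental growth, rose from 796 ± 46.3 to 6363 ± 834 (SD, n = 8 each; log2 difference 2.97). Gnas, the stimulatory G protein alpha subunit, rose from 1135 to 1841 (0.68, but −0.075 under quantile normalization and not called at 0.26 on the hybridization controls). Osbpl5, an oxysterol-binding protein, had means of 15.5 and 406. It is among the 7 but passed the filter, at an intensity of about 33.7, only through its amplified values, so no fold is given. Ube3a, a ubiquitin ligase, fell from 552 ± 13.6 to 176 ± 202 (SD, n = 8 each; log2 difference −2.81). Cd81, a tetraspanin, fell from 1502 to 419 (−2.22), and Grb10, an adaptor that restrains growth signalling, from 958 to 392 (−1.46).

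Genes tied to the setting or keeping of methylation imprints had 38 probe sets. Each gene was again read from only 1, that of the highest nonamplified mean, and its other probe sets may differ. All 16 genes were tested, and 6 were higher and 5 lower, against the same 23.1% and 30.3% of all genes. Their median difference was −0.014. The values of Trim28 and Dnmt3l come from _x_at and _s_at probe sets, which may bind other transcripts too. Zfp57, the zinc finger protein that binds methylated imprinting control regions, fell from 250.4 ± 34.9 to 63.9 ± 8.16 (SD, n = 8 each; log2 difference −1.73, SE 0.098), while its cofactor Trim28 rose from 4242 to 7300.0 (0.78, but 0.0064 and not called under quantile normalization). Setdb1, the H3K9 methyltransferase that Trim28 recruits, fell from 523 to 167 (−1.80). Dnmt3b, a de novo DNA methyltransferase, rose from 2008 to 4762 (1.24, but 0.39 under quantile normalization and 0.82 on the hybridization controls). Dnmt3a fell from 472 ± 22.7 to 176 ± 177 (SD, n = 8 each; log2 difference −2.06, SE 0.56), with groups that overlapped. Their cofactor Dnmt3l had a difference of 0.055 that did not pass (limma adjusted p = 0.705). It passed at 0.46 after median centring, at 0.27 on the brighter 50% and, with the opposite sign, at −0.75 under quantile normalization.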

How the data were processed

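Biotinylated cRNA was made by the Affymetrix one-cycle assay, per the labels. Values are intensities as the authors deposited them. For the summarising software and the scaling between arrays, "not given in the sources used here" applies. Genes were named from the supplied platform annotation, updated through gene identifiers of the RefSeq table of GRCm38.p6: 34958 probe sets had 1 symbol (34754 matched), 932 several and 9211 none here. After 64 control probe sets were left out, the filter removed probe sets whose mean of log2(intensity + 16) was at or under the 40th percentile. limma 3.58.1 (R 4.3.3; lmFit, then eBayes) was fitted to the rest, 2-sided, with Benjamini-Hochberg adjustment over 27022. Permutation tests were exact and 2-sided. Pair differences and the spread test were added after the values were seen. Members and lists were chosen with earlier results of these data known. Named genes were all members and, 3 tested genes by top nonamplified mean and 3 by the size of the log2 difference (of the marker lists only Tfap2c and Pax6 are named), plus the 3 genes closest to the probe set of the largest difference. In simulated data with 27022 probe sets, 60% of 100 differences of 1 and 81% of 100 differences of 2 on the log2 scale were called. Alternatives changed the pseudocount, scaling, filter, probe set types, weights, trend, block and arrays used. No batch was given. The number of arrays limits the precision. Figures were drawn with matplotlib 3.10.9.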

Additional observations from a re-analysis of the deposited data

Results flagged for a closer look

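In 46 groups of 8 arrays (23 probe sets, 2 groups), 4 held a single array far from the others by Dixon's test on the log2(intensity + 16) scale, which chance gives in about 1 of 20 groups. On amplified arrays Meg3 1436713_s_at had a highest value of 38.6 (replicate 4), the next being 11.3. Meg3 1452905_at had a lowest value of 373 (replicate 1), the next being 772. Meg3 1452906_at had a lowest value of 1 (replicate 2), the next being 36.5. On nonamplified arrays Igf2r 1424111_at had a highest value of 298 (replicate 1), the next being 271.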

How the results depend on the processing

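Among 637 values of the 23 probe sets under the alternatives, 585 kept sign and call, 24 lost the call, 5 gained it and 23 changed sign. No probe set whose difference as deposited exceeded 1 in size did either. The number called was 12 to 15. Higher calls fell from 5 to 3 with weights per group, a robust intensity trend, hybridization control scaling, or without _x_at and _s_at probe sets, which leaves 20. Sign changes were as follows, with Gnas and Dnmt3l listed as well, which are outside the 23 probe sets and these counts. Centred on the median: Igf2 0.11, Meg3 1428764_at 0.30, 1429256_at 0.32, 1429257_at 0.27 and 1436057_at 0.23, Cdkn1c 0.064. Quantile normalization: Igf2 0.069, Meg3 0.18, 0.32, 0.21 and 0.077 at the same probe sets and −0.39 at 1452905_at, Gnas −0.075, Dnmt3l −0.75. Brighter 50%: Meg3 0.11, 0.13, 0.076 and 0.034 at the first 4. Hybridization controls: Meg3 1452905_at −0.21, Rian 1428055_at −0.015, Snrpn −0.14, Dnmt3l −0.36. Pseudocount of 64: Cdkn1c 0.070. Single arrays left out: Cdkn1c ran from −0.78 to 0.18 (without amplified replicate 1 or 7) and Meg3 1428764_at from −0.17 to 0.051 (without amplified replicate 2). Correlated pairs numbered 2 under quantile normalization and 0 to 1 with 1 amplified array left out. Probe sets with a larger amplified spread went from 14 to 9 with a pseudocount of 64, and to between 9 and 15 with 1 array left out, the 9 without nonamplified replicate 8. The background of these spread counts is not given here. Dropouts numbered 27 and 30 at the 20th and 30th percentiles. With the replicate number as a replicate block 14 of 23 were called, Rian 1428055_at being lost (adjusted p = 0.0803). The numbers do not pair the arrays: correlations of same-numbered deviations were −0.0078 to 0.018, and 3 of 8 amplified arrays correlated best with their own number. The cause of these changes was not tested. Values of 1 are a floor and have no order.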
